A study of Mus musculus with 18 samples.

Results

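The genes described here are 7 enzymes and carriers of gluconeogenesis: G6pc, Slc37a4, Pck1, Fbp1, Pcx, Gpt and Got1. They were chosen by name as a pathway, and all 7 were found among the 12019 genes of the authors' deposited table, with a p-value given in all 4 of its comparisons. RNA came from livers of C57BL/6J mice after 8 weeks of an intervention that began at 21 weeks of age. The groups were mice fed ad libitum (the control, 6 libraries in the labels), mice under 30% caloric restriction (3 libraries), and mice that ate chow with rapamycin (42 mg/kg/day), with metformin (37.5 mg/kg/day) or with TM5614 (20 mg/kg/day), in 3 libraries each. All groups carry the same labelled genotype, and no label names a transgene. Rapamycin inhibits the kinase mTOR, metformin is a glucose-lowering biguanide, and TM5614 is an inhibitor of plasminogen activator inhibitor PAI-1. No source used here gives the sex, the chow intake, the hour of collection or the time since the last meal, and the liver is known to change the transcripts of this pathway between feeding and fasting.

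Gluconeogenesis makes glucose from lactate, glycerol and amino acids, and the liver uses it to hold blood glucose between meals. Gpt (alanine aminotransferase) and Got1 (cytosolic aspartate aminotransferase) connect amino acids and the malate-aspartate shuttle to pyruvate and oxaloacetate. Pcx (pyruvate carboxylase) makes oxaloacetate in mitochondria, Pck1 (cytosolic phosphoenolpyruvate carboxykinase) turns oxaloacetate into phosphoenolpyruvate, and Fbp1 (fructose bisphosphatase) bypasses the glycolytic phosphofructokinase step. Slc37a4 carries glucose 6-phosphate into the endoplasmic reticulum, where G6pc, the catalytic subunit of glucose-6-phosphatase, frees glucose from it. Glucagon, glucocorticoids and the forkhead factor FOXO1 are known to raise Pck1 and G6pc, and insulin to lower them.

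On mm10, with GENCODE M21 annotation, G6pc lies on chromosome 11 from 101367561 to 101377903 and Slc37a4 on chromosome 9 from 44396852 to 44402968. Pck1 lies on chromosome 2 from 173153048 to 173159273 and Fbp1 on chromosome 13 from 62864753 to 62888282. Pcx and Got1 are both on chromosome 19, from 4510472 to 4621752 and from 43499752 to 43524605, and Gpt is on chromosome 15 from 76695716 to 76699686. Each gene codes for protein, and none shares an exonic base with another gene of this annotation. The values are given per gene and not per transcript. The gene models behind the counts are not stated and may differ from this annotation.

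RefSeq promoter windows, from 250 bases before to 50 bases after a start site on GRCm38.p6, were found for 6 of the 7 genes (not Gpt). The windows of 3 genes are printed 5′ to 3′ because G6pc and Slc37a4 differed in sign under caloric restriction and Pck1 is the most abundant: G6pc at chr11:101367466-101367765 (plus strand), its partner Slc37a4 at chr9:44396696-44396995 (plus strand, the first of 3 windows) and Pck1 at chr2:173152823-173153122 (plus strand). Capitals mark a TATA box (TATAAA) or the shorter cyclic AMP response element core (TGACG), searched on both strands.
G6pc: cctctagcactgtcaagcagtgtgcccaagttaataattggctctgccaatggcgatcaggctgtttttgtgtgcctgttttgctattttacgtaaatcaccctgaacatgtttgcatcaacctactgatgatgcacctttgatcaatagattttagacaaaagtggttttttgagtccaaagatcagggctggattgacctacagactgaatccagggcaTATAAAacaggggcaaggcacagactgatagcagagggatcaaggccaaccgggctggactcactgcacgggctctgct
Slc37a4: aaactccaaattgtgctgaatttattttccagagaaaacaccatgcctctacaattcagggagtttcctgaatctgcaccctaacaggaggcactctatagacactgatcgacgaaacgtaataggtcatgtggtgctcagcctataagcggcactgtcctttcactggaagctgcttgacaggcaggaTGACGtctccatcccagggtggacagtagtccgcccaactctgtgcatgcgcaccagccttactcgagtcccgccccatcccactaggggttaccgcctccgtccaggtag
Pck1: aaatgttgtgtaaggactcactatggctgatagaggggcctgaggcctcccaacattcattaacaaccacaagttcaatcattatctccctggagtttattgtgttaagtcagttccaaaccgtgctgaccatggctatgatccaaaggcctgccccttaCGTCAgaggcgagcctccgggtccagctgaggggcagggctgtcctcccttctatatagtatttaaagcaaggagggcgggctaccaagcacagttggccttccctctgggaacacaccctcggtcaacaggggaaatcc
The G6pc window holds TATAAA with its first base 29 bases before the start site. The Slc37a4 window holds TGACG on the coding strand, 61 bases before the start site, and the Pck1 window holds it on the other strand, 90 bases before the start site. The second Slc37a4 window holds TGACG at 2 places, the first of them the one printed, and the third holds TATAAA 32 bases before its start site. The Fbp1, Got1 and Pcx windows hold neither. Neither the full element TGACGTCA, which contains the shorter core, nor the forkhead motif TGTTTAC was matched in any window of the 6 genes. Only these exact letters were searched. A site with other letters would be missed, so a missing match does not show that a site is absent. Over all 32851 windows of this length, 20.8% hold TGACG, 13.6% TATAAA, 3.65% TGTTTAC and 1.79% TGACGTCA, so that a match is common and describes the letters only.

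The values were read as group means of normalized counts, meaning gene counts divided by a size factor per library. Log2 fold changes and adjusted p-values against the control come with them, all from the authors' deposited table. A gene is said to rise or fall where that adjusted p is under 0.05. No SD is given, since values per library were not used. The authors' adjusted p depends on the spread between libraries, but also on the size of the change and the number of genes tested. It is therefore not a measure of spread. The labels do not say how the mice were housed or batched, so these p-values rest on the spread between these libraries only. The 3 distinct control means between 0 and 0.5 run from 0.315 to 0.350, close to the 0.299 to 0.398 of the groups with 3 libraries, although the labels list 6 control libraries; which libraries stand behind the control mean is not known. Hepatocyte markers were high in each group, with albumin (Alb) at 7.02% to 10.3% of the summed means. In whole liver, fewer cells of a type and less RNA per cell cannot be told apart.

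Per kilobase of annotated exon, the 7 genes spanned about an order of magnitude in the control. Pck1 was highest at 7119 normalized counts per kilobase, followed by Fbp1 at 3712, G6pc at 2164 and Got1 at 1384. Pcx at 839 and Gpt at 776 followed, and their order turned when the length of the longest coding transcript was used (962 and 1274). Slc37a4 was lowest at 620 per kilobase. Pck1 alone made up 51.4% of the summed normalized counts of the 7 genes in the control, and between 45.4% and 53.2% in the other groups. The 7 genes together held 0.609% of all summed means in the control, 0.738% under caloric restriction, 0.547% under rapamycin, 0.489% under TM5614 and 0.457% under metformin.

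Under caloric restriction 5 of the 7 genes rose: Got1, Slc37a4, Gpt, Pcx and Fbp1. None fell, and Pck1 and G6pc did not pass. Of the 11760 genes with an adjusted p in this comparison, 9.74% were called higher, 9.24% lower and 19.0% in either direction. The median log2 fold change of the 7 genes was 0.43, against 0.01 over 11201 genes whose mean over the groups was 10 or more. The genes that rose lie at the entry of amino acids and pyruvate, at the fructose bisphosphatase step and at the transport of glucose 6-phosphate. Of the 8 hepatocyte markers 3 rose and 1 fell under caloric restriction (summed means 1.01e+06 in the control and 1.28e+06 under restriction). Alb rose by 0.50 (adjusted p = 1.70e-05) per the authors' deposited table, more than Pcx and Fbp1 did, and Ttr fell by 0.34 on the log2 scale (adjusted p = 0.0274) per the authors' deposited table. The part of these markers in the rises was not tested.

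Of the aminotransferases, Got1 had means of 3514 normalized counts in the control, 6442 under caloric restriction, 2707 under rapamycin, 2551 under metformin and 3122 under TM5614 per the authors' deposited table. Its mean under restriction was thus above the control and those under all 3 compounds were below it. The rise under restriction was the largest of the 7 (log2 fold change 0.87, adjusted p = 0.00498, per the authors' deposited table). Gpt had 2283 in the control, 3422 under restriction, 1890 under rapamycin, 2136 under metformin and 1965 under TM5614 per the authors' deposited table, the same pattern of 1 group above the control and 3 below. Its rise of 0.58 had the smallest adjusted p of the 7, 2.02e-05, per the authors' deposited table. Neither gene passed under any compound (smallest adjusted p = 0.301, for Gpt under rapamycin, per the authors' deposited table).

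At the carboxylase steps, Pcx had 3988 normalized counts in the control, 4984 under restriction, 4988 under rapamycin, 4010 under metformin and 4297 under TM5614 per the authors' deposited table. The restriction and rapamycin means were nearly level, with log2 fold changes of 0.32 each, but the adjusted p was 0.00912 under restriction and 0.0621 under rapamycin per the authors' deposited table, on either side of the threshold. Pck1, the next enzyme, had 24412 in the control, 32829 under restriction, 22789 under rapamycin, 17235 under metformin and 19538 under TM5614 per the authors' deposited table. It was highest under restriction and lowest under metformin, and it passed in none of the 4 comparisons. Its log2 fold changes were 0.43, -0.10, -0.50 and -0.32 in that order, with adjusted p from 0.355 to 0.958, per the authors' deposited table. Pck1 thus had a larger log2 fold change under restriction than Pcx and Fbp1, which passed.

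Fbp1 had the narrowest spread after Pcx, with 6317 normalized counts in the control, 7654 under restriction, 7208 under rapamycin, 6602 under metformin and 5854 under TM5614 per the authors' deposited table. The highest mean was 1.31 times the lowest, against 1.25 times for Pcx. The rise under restriction was small and stood just inside the threshold (0.28, adjusted p = 0.0487, per the authors' deposited table). With group sums made equal without Rn45s and Lars2 it was 0.18.

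**Figure D1:**
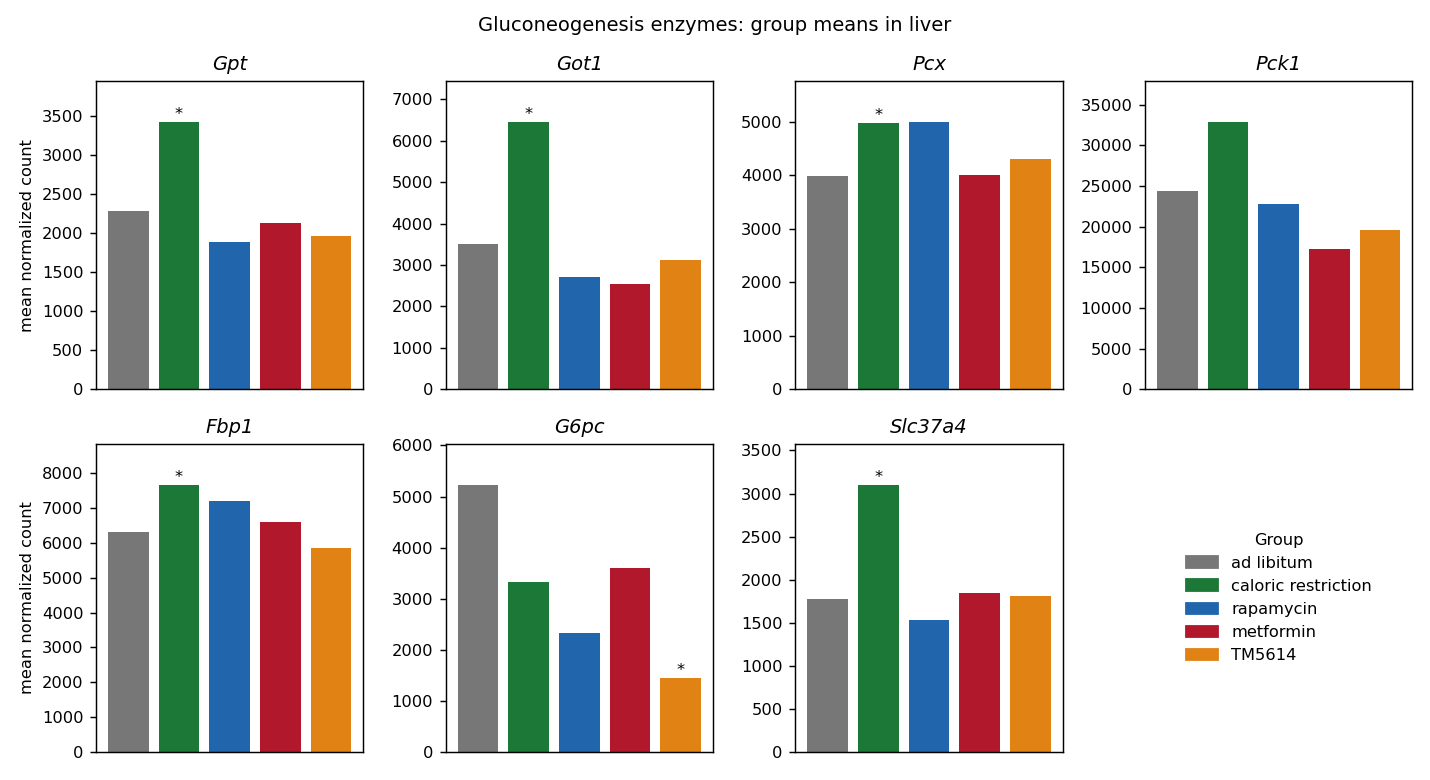
Mean normalized count (y axis, linear, from 0) of each of the 7 genes in the 5 groups, 1 bar a group and 1 panel a gene, in the order of the pathway; asterisks mark an adjusted p under 0.05 against ad libitum, and no error bars are drawn because the table holds means only. G6pc is highest in the ad libitum group (5224) and lowest under TM5614 (1440), while Got1, Gpt and Slc37a4 stand out under caloric restriction (6442, 3422 and 3098).

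The 2 genes of the glucose-6-phosphatase system had different orders of group means, a difference that was not tested. G6pc had 5224 normalized counts in the control, 3318 under restriction, 2337 under rapamycin, 3610 under metformin and 1440 under TM5614 per the authors' deposited table. All 4 intervention means were below the control, and the highest mean was 3.63 times the lowest, the widest range of the 7 genes. Slc37a4, its carrier partner, had 1770 in the control, 3098 under restriction, 1537 under rapamycin, 1844 under metformin and 1812 under TM5614 per the authors' deposited table. It stood apart under restriction only, where it rose by 0.81 (adjusted p = 0.00719) per the authors' deposited table, and the other 4 means lay between 1537 and 1844. Under restriction G6pc had -0.65 (adjusted p = 0.291) per the authors' deposited table, so that the 2 genes had opposite signs there and only the carrier passed.

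Under TM5614 G6pc was the 1 gene of 7 that passed, and it fell. Of the 10834 genes with an adjusted p in this comparison 3.96% were called, 1.95% lower and 2.01% higher. The log2 fold change of G6pc was -1.86 (adjusted p = 0.00161) per the authors' deposited table, a mean 0.276 times that of the control. The other 6 genes had log2 fold changes between -0.32 (Pck1) and 0.11 (Pcx), with adjusted p of at least 0.323 per the authors' deposited table. The median over the 7 was -0.17, against -0.01 over those 11201 genes.

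Under rapamycin and metformin none of the 7 genes passed in the authors' DESeq2 results; unadjusted p-values were not analysed here, and no other tool was run. Of 10369 genes with an adjusted p under rapamycin 1.39% were called (0.714% higher, 0.675% lower), and of 7350 under metformin 0.245% (0.163% higher, 0.0816% lower), so that a count of 0 among 7 is near the background in both. G6pc had -1.16 (adjusted p = 0.150) under rapamycin and -0.53 (adjusted p = 0.955) under metformin per the authors' deposited table. The median log2 fold change of the 7 genes was -0.20 under rapamycin and -0.10 under metformin, against 0.01 over those 11201 genes in each. In the metformin group Rn45s, the ribosomal RNA precursor, made up 4.40% of the summed means, against 0.132% to 0.555% in the others. With group sums made equal without Rn45s and Lars2, log2 fold changes under metformin moved by -0.03. The part of Rn45s alone in the metformin values was not tested. The 4 comparisons share the control, so that the values of a gene in them are not independent, and the differences between interventions were not tested.

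**Figure D2:**
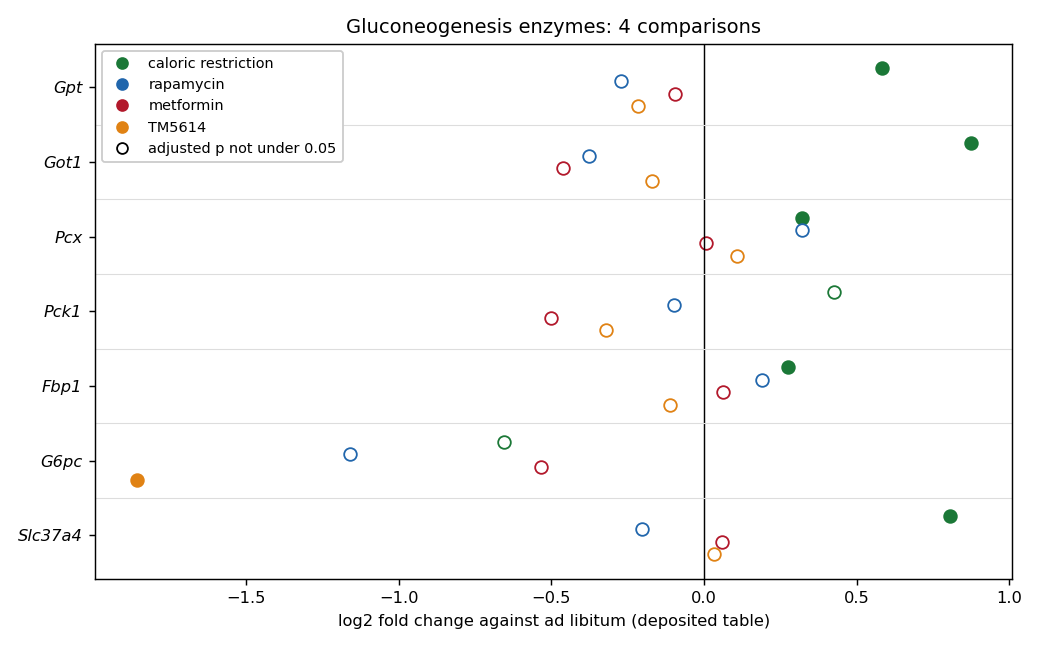
Log2 fold change against ad libitum (x axis) of the 7 genes (y axis, in the order of the pathway) in the 4 comparisons, by colour; filled points have an adjusted p under 0.05 and open points do not. Filled points are the 5 rises under caloric restriction, from 0.28 (Fbp1) to 0.87 (Got1), and the fall of G6pc under TM5614 (-1.86).

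Ratios of partner genes within a group do not depend on the scaling between groups. Relative to its value in the control, the ratio of G6pc to Slc37a4 was 0.269 under TM5614, 0.363 under caloric restriction, 0.515 under rapamycin and 0.663 under metformin. The low ratio had different parts: under TM5614 Slc37a4 was near the control (0.03, adjusted p = 0.963, per the authors' deposited table), and under restriction it rose. The ratio of Got1 to Got2, the mitochondrial aspartate aminotransferase, was 2.12 times the control ratio under restriction, and 0.964 under TM5614, 0.752 under metformin and 0.709 under rapamycin. Got2 fell under restriction (-0.21, adjusted p = 0.0278, per the authors' deposited table) while Got1 rose. Gpt2, the mitochondrial alanine aminotransferase, had 0.41 (adjusted p = 0.117) under restriction per the authors' deposited table, the same sign as Gpt, and the ratio of Gpt to Gpt2 was 1.13 times that of the control. These differences within pairs were not tested. Gpt2 was taken up after its values were seen.

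The other isozymes were scarce. Pck2, the mitochondrial phosphoenolpyruvate carboxykinase, had 4.76 normalized counts per kilobase in the control against 7119 for Pck1. G6pc3, the widely expressed phosphatase subunit, also taken up after its values were seen, had 17.2 per kilobase against 2164 for G6pc. Pck2 had log2 fold changes from -0.29 to 0.02 and passed in none of the 3 comparisons in which it has an adjusted p per the authors' deposited table, which gives none under metformin. Fructose bisphosphatase Fbp2, the muscle isozyme, was searched for and not found in the authors' deposited table.

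**Figure D3:**
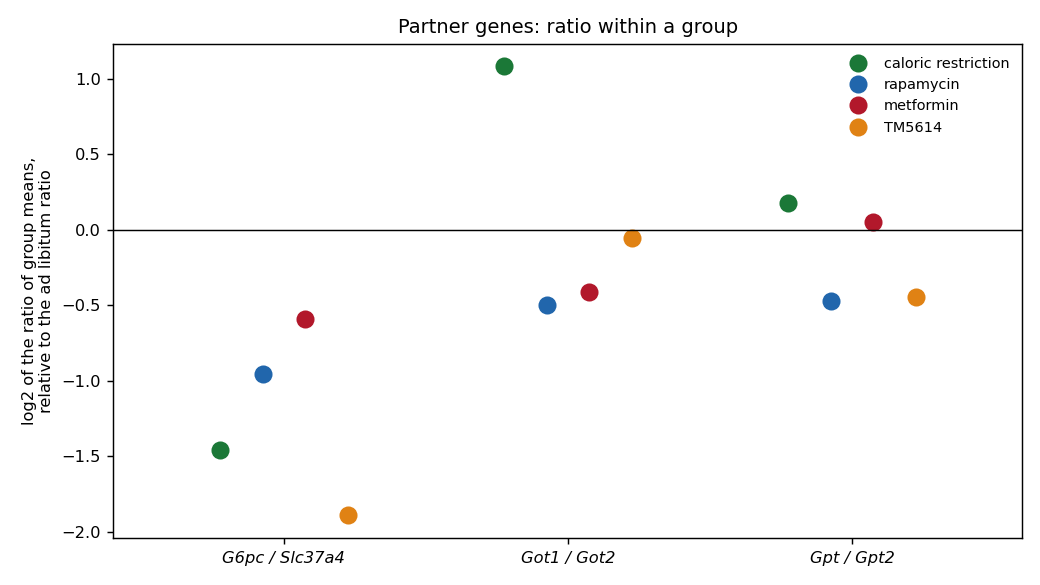
Log2 of the ratio of group means of 3 gene pairs, relative to the same ratio in the ad libitum group (y axis; 0 is the control ratio), with 1 point per intervention and no error bars, since only group means entered. All 4 points of G6pc to Slc37a4 are below 0, the lowest under TM5614 (-1.89), and the highest point of Got1 to Got2 is that of caloric restriction (1.08).

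Beyond the 7 genes, the rest of the pathway was described by lists. Under caloric restriction, of 18 other enzymes of reversible and entry steps, 1 rose, 3 fell and 14 did not pass (median log2 fold change -0.04). For this and the following lists, the shares over all genes under restriction were 9.74% called higher and 9.24% lower. Glycerol kinase (Gyk), which admits glycerol to the pathway, rose by 0.72 (adjusted p = 2.93e-06) per the authors' deposited table. Glycerol phosphate dehydrogenase (Gpd1), the following step, fell by 1.05 on the log2 scale (adjusted p = 1.02e-08) per the authors' deposited table. Phosphoglycerate mutase (Pgam1) had -0.36 (adjusted p = 0.00967) per the authors' deposited table, and the third gene that fell was Got2. Serine dehydratase (Sds, 0.75, adjusted p = 0.215) did not pass per the authors' deposited table.

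Carriers of substrates and glucose held 6 rises and no fall among 13 genes under restriction (median 0.10). The mitochondrial pyruvate carrier genes, listed under the older symbols Brp44l (Mpc1) and Brp44 (Mpc2), rose by 0.59 (adjusted p = 1.42e-06) and 0.48 (adjusted p = 0.0124) per the authors' deposited table. The aspartate-glutamate carrier Slc25a13, of the malate-aspartate shuttle, rose by 0.50 (adjusted p = 1.90e-05) per the authors' deposited table. Slc2a2, the glucose transporter of the hepatocyte membrane, rose by 0.39 (adjusted p = 0.00587) per the authors' deposited table; the other 2 rises were Slc38a4 and Slc7a2, amino acid transporters named after their values were seen. With Pcx, the 2 pyruvate carrier genes and Pdha1 (0.34, adjusted p = 3.15e-04, per the authors' deposited table), a subunit of pyruvate dehydrogenase, genes for both mitochondrial uses of pyruvate were among those that rose. Pdk4, for a kinase that shuts pyruvate dehydrogenase, rose as well (4.06, adjusted p = 8.24e-06, per the authors' deposited table).

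Of 13 enzymes and controls of the opposing glycolytic direction 1 rose (Pdha1), 1 fell and 11 did not pass under restriction (median -0.01). Pyruvate kinase (Pklr), which returns phosphoenolpyruvate to pyruvate, went from 2114 to 1012 normalized counts (-1.06, adjusted p = 0.00601) per the authors' deposited table.

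Among 24 hormone receptors, kinases and transcription factors of the pathway 5 rose, none fell and 19 did not pass under restriction (median 0.32). The fatty acid receptor Ppara rose by 1.32 (adjusted p = 6.42e-08), Foxo1 by 0.75 (adjusted p = 9.38e-05), and the liver factors Creb3l3 by 0.64 (adjusted p = 0.00111) and Hnf4a by 0.65 (adjusted p = 0.00658) per the authors' deposited table; the fifth was Nr3c1, the glucocorticoid receptor, named after its values were seen. The coactivator Ppargc1a had 214 normalized counts in the control, 403 under restriction, 120 under rapamycin, 74.6 under metformin and 93.5 under TM5614 per the authors' deposited table. Like Pck1, it was highest under restriction and lowest under metformin, and it passed in no comparison (adjusted p from 0.0777 to 0.412 per the authors' deposited table). The glucagon receptor Gcgr (0.05, adjusted p = 0.822) and the insulin receptor Insr (0.28, adjusted p = 0.122) did not pass under restriction per the authors' deposited table.

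Of 13 fasting and glucagon response genes outside the pathway 6 rose, none fell and 7 did not pass under restriction (median 0.72). Pyruvate dehydrogenase kinase (Pdk4), which shuts pyruvate dehydrogenase, went from 80.7 to 1344 normalized counts (4.06, adjusted p = 8.24e-06) per the authors' deposited table. Cpt1a (0.87), Tdo2 (0.70) and Txnip (1.85) also rose per the authors' deposited table. The gene for tyrosine aminotransferase (Tat), a classical glucocorticoid target named after its values were seen, had 0.09 (adjusted p = 0.926) per the authors' deposited table. Of 17 genes of amino acid breakdown that supply the pathway 6 rose, 4 fell and 7 did not pass (median 0.28). Got2 and Sds are also counted among the reversible and entry steps, and Tat among the fasting response genes. The counts of the lists are therefore not of separate genes. Proline dehydrogenase (Prodh) rose by 0.86 and argininosuccinate lyase (Asl) by 1.08, while cystathionine synthase (Cbs, -1.20) and alanine-glyoxylate aminotransferase (Agxt, -0.65) fell per the authors' deposited table.

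Under TM5614 the amino acid list held 4 falls of 17 and no rise, against 1.95% of all genes called lower, with Agxt at -0.85 (adjusted p = 1.22e-11) and Cbs at -0.44 (adjusted p = 1.88e-04) per the authors' deposited table. Ppara rose (0.79, adjusted p = 0.0146) and the oxoglutarate carrier Slc25a11 fell (-0.32, adjusted p = 0.0212) under TM5614 per the authors' deposited table, and no gene of the other 3 lists passed there by the authors' DESeq2 test. Under metformin Foxo1 (-0.80, adjusted p = 0.00304), Lpin2 (-0.99, adjusted p = 0.0177) and Agxt (-0.44, adjusted p = 0.0187) fell per the authors' deposited table. G6pc (-0.53) and Pck1 (-0.50), targets of FOXO1, had the same sign and did not pass there. Only 0.245% of the 7350 genes with an adjusted p were called under metformin. The part of Foxo1 in these values was not tested. Foxo1 thus had opposite signs under restriction and metformin, a difference that was not tested. Under restriction, where Foxo1 rose, Pck1 had the same sign (0.43) and G6pc the opposite sign (-0.65) per the authors' deposited table. Neither Pck1 nor G6pc passed there. Under rapamycin lactate dehydrogenase (Ldha), which makes pyruvate from lactate, rose by 0.71 (adjusted p = 0.0293) per the authors' deposited table. Pdha1 also rose (0.34, adjusted p = 0.00608), and Agxt (-0.47, adjusted p = 0.00398) and Prodh (-0.60, adjusted p = 0.00514) fell under rapamycin per the authors' deposited table; Prodh had risen under restriction.

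**Figure D4:**
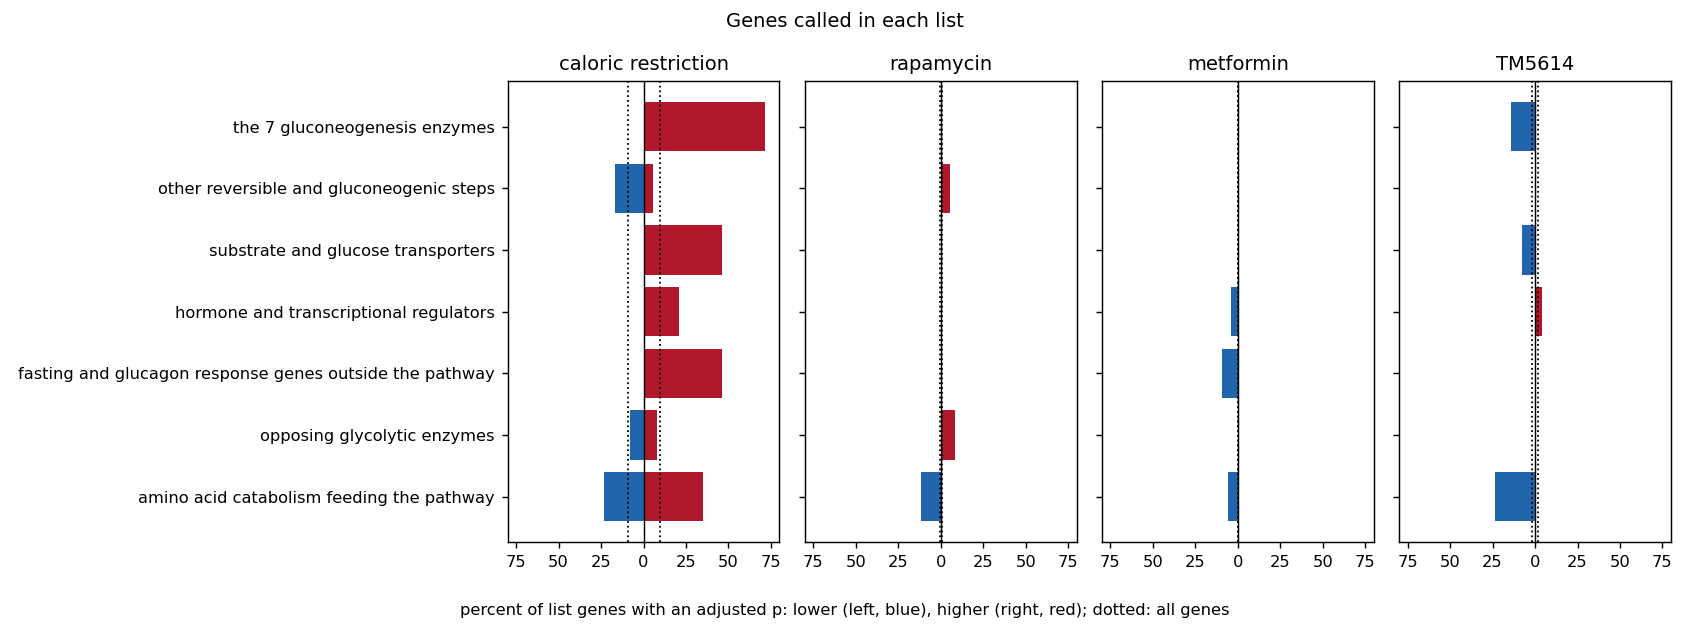
Share of genes with an adjusted p (x axis, percent) called higher (red, right) or lower (blue, left) in 7 lists (y axis), with 1 panel per comparison; dotted lines give the shares over all genes. Under caloric restriction the 7 gluconeogenesis enzymes have 5 rises, and the shares of all genes are 9.74% higher and 9.24% lower.

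The genes most like each of the 6 that passed at least once, by the root mean square difference of the 4 log2 fold changes among genes with a mean of at least 50, came from varied functions. G6pc was nearest to Cldn5, a tight junction gene of endothelium (difference 0.263), and to Cited2, a transcriptional co-regulator that binds CBP and p300 (0.267). Cited2 had 281 normalized counts in the control, 160 under restriction, 143 under rapamycin, 141 under metformin and 84.2 under TM5614 per the authors' deposited table, with an adjusted p of 1.23e-05 under TM5614. Slc37a4 was nearest to Igfbp4, a binding protein of insulin-like growth factors (0.0372), and Zfp623 (0.0469). Got1 was nearest to Akap13 (0.0787) and the kinase gene Mknk2 (0.10), and Gpt to the lysosomal protease gene Ctsl (0.0281) and Crcp (0.0396). Pcx was nearest to Lbr (0.0283) and Vhl (0.0353), and Fbp1 to Ddrgk1 (0.0346) and Naca (0.0385). The likeness covers 4 values that share the control, and G6pc had the most distant neighbours of the 6.

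Gluconeogenesis is known to be stronger in periportal than in pericentral hepatocytes. Under caloric restriction 2 of 10 periportal markers rose and 2 fell (summed means 103482 in the control and 117368 under restriction), and 4 of 10 pericentral markers rose and none fell (64111 and 112711). Under TM5614 1 periportal marker of 10 fell and 1 pericentral marker of 10 rose, with summed means of 102104 and 68665. Some of these markers are also in the lists above. The periportal fall under TM5614, Hal, named after its values were seen, is also among the falls of the amino acid list. Over all genes with an adjusted p, 9.74% were called higher and 9.24% lower under restriction, and 2.01% and 1.95% under TM5614. Kupffer cell and macrophage markers had a summed mean of 2402 in the control, 1213 under restriction and 1800 under TM5614, with 4 falls of 12 under restriction and none under TM5614. Of 7 pancreatic acinar markers 5 (Prss2, Cpa1, Pnlip, Amy2a5 and Ctrb1) are listed at 0 in all 4 intervention groups and above 0 in the control, where the 7 sum to 587, against 37.4 to 97.5 in the others, per the authors' deposited table. Of the 6 kidney tubule markers only Slc5a2 was found in the authors' deposited table, at 13.7 to 18.7 normalized counts. The part of these markers in the results was not tested.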

How the data were processed

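Gene expression was measured by RNA-seq of poly(A)-selected whole-liver RNA in 18 labelled libraries; the series text gives 30 mice, of which the listed groups account for these 18. Per the submitters' processing notes, reads were aligned with HISAT2 2.0.5 to mm10; no source used here states the counter, its strand setting or the gene models. Per the file headers, the deposited table holds a normalized signal per group, the authors' group means of counts divided by size factors. Per the file headers, it also holds the authors' adjusted p-value and log2 fold change for each intervention against the control. The authors' file name states DESeq2. For the 7 genes the log2 fold changes lay within 4.75e-04 of the log2 ratio of the group means. No source used here gives the depth of each library. The 18 columns of the deposited table of values per library have names that match no label, so none was used, and limma, leave-one-out and replicate fits could not be made.

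Computed here (Python 3.11.15, pandas 2.3.3) were counts of calls at an adjusted p under 0.05, medians over genes with a mean over the groups of at least 10, values per kilobase of exon (GENCODE M21), ratios, likeness and motif matches. The counting was tested on simulated data. The 7 genes, the lists and the markers were chosen with earlier results of these data known. Genes named are the 7, of each list up to 4 with the smallest adjusted p under restriction and up to 2 under each compound, a fixed set named throughout (Ppargc1a, Foxo1, Gcgr, Insr, Pklr, Slc2a2, Pck2, Sds, and others not reported here), and the 2 genes most like each member called; others are said to be chosen after their values were seen. Alternatives were other thresholds, a log2 fold change of at least 0.5, other scalings and a filter on low means.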

Additional observations from a re-analysis of the deposited data

How the results depend on the processing

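The 5 calls under caloric restriction and the 1 under TM5614 kept their direction when the values were rescaled. The settings were the log2 ratio of group means with a pseudocount of 1, centring on the median of all genes, and equal sums without Rn45s and Lars2. None of these could have turned a call. They left the adjusted p as it was, and the largest shift, -0.10 under restriction, is smaller in size than the smallest call, 0.28 (Fbp1). Requiring a log2 fold change of at least 0.5 left 3 of the 5 under caloric restriction (Got1, Slc37a4 and Gpt), since Pcx and Fbp1 are smaller. At an adjusted p under 0.1 rapamycin had 1 call, Pcx, in place of 0. At an adjusted p under 0.01 Fbp1 alone was lost, which left 4 under restriction. Of the 28 log2 fold changes (7 genes in 4 comparisons), 1 that had not passed changed sign, Pcx under metformin, from 0.01 to -0.002 when centred and to -0.02 with equal sums. Equal sums moved all values under restriction by -0.10, which took Fbp1 from 0.28 to 0.18. The order of Pcx and Gpt per kilobase turned with the longest coding transcript, a setting chosen after seeing the data, with 5 of 7 ranks kept. No paired analysis was possible because the library columns carry no replicate number or group of the labels, and for the same reason leaving out each replicate and the limma fits were not run. The calls rest on the authors' own test; without values per library they could not be rechecked here, and a call that rests on 1 library cannot be seen.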

Other observations

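A further deposited log2 fold change column of the authors' table carries the heading TM5441, which no label mentions, and comes with no group mean or adjusted p. For the 7 genes it gives -1.22 for G6pc, -0.57 for Pck1, -0.23 for Got1, -0.21 for Gpt, -0.02 for Fbp1, 0.05 for Slc37a4 and 0.11 for Pcx in the authors' deposited table. G6pc thus had the lowest value of the 7 in that column, as it did in the 4 labelled comparisons, and Slc37a4 was near 0. What the column was compared with is not stated.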
